A study of Mus musculus with 6 samples.

Results

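The 8 genes described here were grouped as receptors for the removal of mitochondria by autophagy (mitophagy), together with the kinase gene Pink1. Besides Pink1 they are the BNIP3 family (Bnip3 and Bnip3l), the FUNDC family (Fundc1 and Fundc2), Bcl2l13, Fkbp8 and Phb2. All 8 were chosen by name, as the protein-coding genes with these symbols, out of 55335 gene identifiers counted, and all 8 were tested. RNA was taken from wild-type (WT) MEF cells, fibroblasts from the connective tissue of mouse embryos, grown with 10% fetal bovine serum, either as parental cells (Ctrl) or after passage through a membrane with 3 μm pores and collection after 15 h (Confine). Polyadenylated RNA was sequenced and the authors deposited read counts per gene, with 3 columns per group. The Confine columns 1 and 2 were identical for each of the 55335 identifiers and entered as a single library (called Confine replicate 1), which leaves 3 Ctrl and 2 Confine libraries. Nothing in the labels says that the libraries came from separate cultures, so p-values measure only the spread between these libraries. The sources describe parental cells without naming a membrane for them, and Confine holds only cells that passed. An effect of passage through the pores, culture on the membrane and selection of the cells that passed therefore cannot be told apart. The study's transwell method, described for wider pores, starts cells in serum-free medium above medium that holds serum. Whether serum differed between the groups during passage is not given.

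Most mitophagy receptors are anchored in the outer mitochondrial membrane and carry a short motif that binds LC3 or GABARAP, the small proteins on the growing autophagosome, so that the organelle is taken in without a need for ubiquitin. PINK1 works differently. It is degraded in healthy mitochondria, builds up on damaged ones, and there phosphorylates ubiquitin, which marks the organelle. BNIP3 and its close relative NIX (gene Bnip3l) belong to the BCL2 family, and their genes are known targets of the hypoxia-inducible factor HIF-1. NIX is known for the clearance of mitochondria from maturing red blood cells.

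HIF binds a short core sequence, ACGTG or GCGTG. The 250 bases before the RefSeq start site (GRCm38.p6) are shown for the gene that rose most, Bnip3, for the third gene that passed the test, Pink1, and for a gene that did not, Bcl2l13, each 5′ to 3′ on the strand of its gene with every match to ACGTG or GCGTG on either strand in capitals. The windows are chr7:138909507-138909756 (minus strand), chr4:138326297-138326546 (minus strand) and chr6:120835980-120836229 (plus strand). RefSeq windows were matched for 7 of the 8 genes, and Bnip3l had none here.
Bnip3: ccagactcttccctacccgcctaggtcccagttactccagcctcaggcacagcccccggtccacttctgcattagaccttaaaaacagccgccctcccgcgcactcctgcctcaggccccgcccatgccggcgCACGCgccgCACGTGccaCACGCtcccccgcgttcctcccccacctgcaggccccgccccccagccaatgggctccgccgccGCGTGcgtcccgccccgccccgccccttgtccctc
Pink1: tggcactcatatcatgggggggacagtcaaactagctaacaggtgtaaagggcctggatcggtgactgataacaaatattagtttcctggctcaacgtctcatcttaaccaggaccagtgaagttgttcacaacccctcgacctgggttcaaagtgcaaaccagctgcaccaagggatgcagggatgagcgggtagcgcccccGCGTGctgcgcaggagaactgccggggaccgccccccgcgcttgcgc
Bcl2l13: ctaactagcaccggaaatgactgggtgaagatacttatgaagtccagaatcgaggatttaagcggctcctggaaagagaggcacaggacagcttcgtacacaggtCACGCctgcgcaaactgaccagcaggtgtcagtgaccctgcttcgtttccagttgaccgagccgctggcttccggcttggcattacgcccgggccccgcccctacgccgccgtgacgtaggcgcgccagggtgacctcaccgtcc
The Bnip3 window held 3 matches to GCGTG and, at positions -108 to -103 from the start, the palindrome CACGTG, which reads as ACGTG on both strands and is counted as 2 matches. The Pink1 window held 1 match to GCGTG, which begins at position -47, and so did the Bcl2l13 window, on the opposite strand. Of the 7 windows, 4 held ACGTG, 4 held GCGTG and 6 held at least one of them. ACGTG was in the windows of Bnip3, Fundc2, Fkbp8 and Phb2, and GCGTG in those of Bnip3, Pink1, Bcl2l13 and Fkbp8. The window of Fundc1 held neither. Among all 32851 RefSeq windows of this length, 16.6% held ACGTG, 28.2% held GCGTG, 38.6% held at least one and 6.02% held CACGTG. Such matches are letters in a window and do not show that a factor was bound.

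The libraries held between 22287210 and 32537550 counts, and the 8 genes had between 388 and 22108 counts in every library, far above the floor of 3 counts (0.101 to 0.128 normalized CPM, the reads of a gene scaled to the TMM-adjusted library size). Pairs of Ctrl libraries differed by a root mean square of 0.513 to 0.642 on the log2 CPM scale over the 15881 genes tested, the 2 Confine libraries by 0.571, and pairs across the groups by 1.01 to 1.06. Of 10 fibroblast markers, 8 were tested and 5 were higher in Confine. The 10 summed to 8750 to 9600 CPM in Ctrl and 15700 to 16500 CPM in Confine. The fibroblast markers Thy1 and Dcn had at most 2 counts in Ctrl and were not tested. In Confine, Thy1 had 0 counts, and Dcn had 27 counts in replicate 1 and 3 in replicate 3. Of 10 leukocyte markers, 3 were higher and 1 lower, and their summed level was 15.8 to 17.8 CPM in Ctrl and 35.6 to 41.3 CPM in Confine. The leukocyte markers that rose were Cd68, with 2.35 to 3.89 CPM in Ctrl and 16.6 to 23.3 CPM in Confine (log2 fold change 2.67, edgeR adjusted p = 3.94e-07), Csf1r (1.45, edgeR adjusted p = 0.0367) and Cd14 (0.92, edgeR adjusted p = 0.00444), and Lyz2 was lower (-2.64, edgeR adjusted p = 3.53e-05). Of the others, Ptprc reached no more than 2 counts, and Cd3e, Adgre1 and Tyrobp had 0. Epithelial markers summed to at most 0.675 CPM and endothelial markers to at most 2.70 CPM in any library, with Epcam, Krt18, Cldn4, Tie1 and Emcn at 0 and 1 of the 7 endothelial genes, Vwf, higher in Confine. The part of these markers in the results below was not tested.

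Bnip3 and Bnip3l rose together and by far the most of the 8 genes, 11.0-fold and 5.43-fold in Confine. Pink1 rose 1.57-fold. The other 5 genes, Fundc1, Fundc2, Bcl2l13, Fkbp8 and Phb2, did not pass the test. Thus 3 of 8 genes had an adjusted p under 0.05, all of them higher in Confine, by edgeR's quasi-likelihood test, with p-values adjusted over 15881 genes by the Benjamini-Hochberg method. Of all tested genes, 23.0% passed in either direction, 12.8% higher and 10.2% lower, so that 55.7% of the genes past the test were higher, or 34.0% where TMM was left out and library size alone was used. With the study's cutoff of 1.5 on the absolute log2 fold change added, 2 of 8 genes were called, both higher, against 8.0% of all tested genes (4.89% higher and 3.11% lower). The CPM of the groups did not overlap in 6 of the 8 genes, against 49.5% of all tested genes in either direction. In 5 of the 8 genes the separate group was higher in Confine, against 25.9% of all tested genes. Fundc2 (80.2 against 77.6 CPM) and Bcl2l13 (30.0 against 29.7 CPM) are counted here by narrow margins, though neither passed the test. This count also depended on TMM. In TPM (reads per exon length, without TMM), the groups of Fundc2 and Pink1 overlapped, and Bcl2l13 was not higher in Confine. The count of 3 genes with an edgeR adjusted p under 0.05 became 5 without Ctrl replicate 2 and 2 without Ctrl replicate 1 or without Confine replicate 3. The median log2 fold change was 0.29 for the 8 genes and -0.0021 for all tested genes. In bulk RNA, fewer cells of a type and less RNA per cell cannot be told apart. For a single gene, an exact permutation test of 3 against 2 libraries cannot give a p below 0.1.

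**Figure D1:**
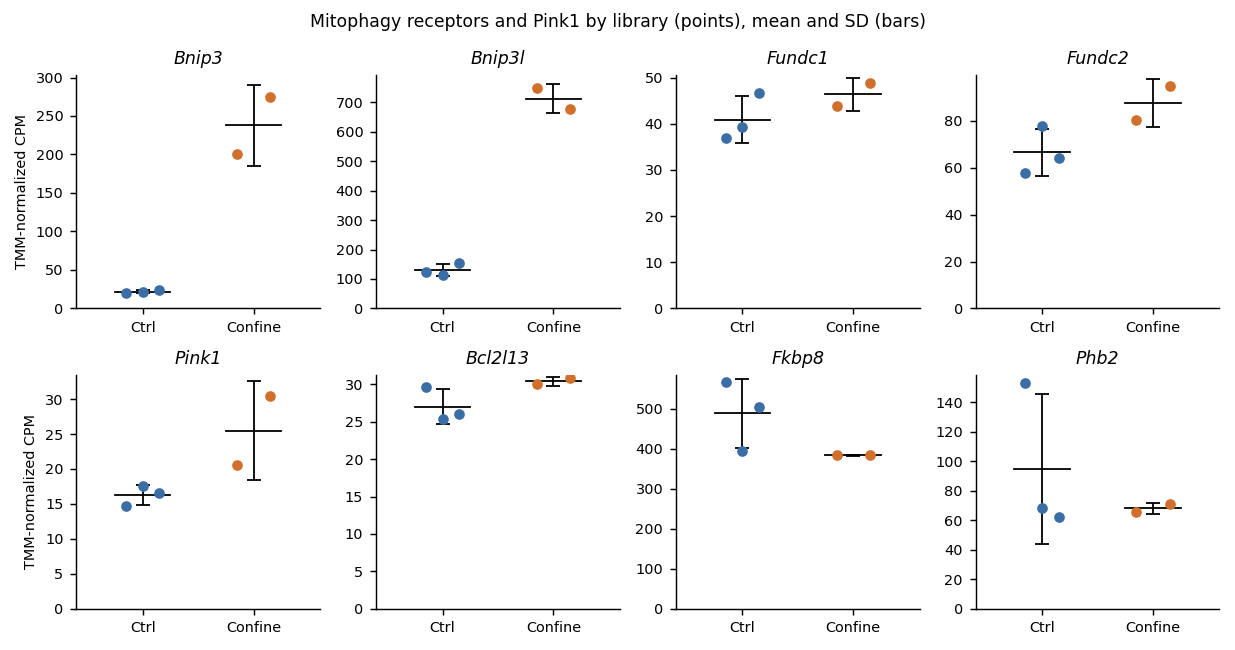
TMM-normalized CPM of the 8 genes in the 3 Ctrl and 2 Confine libraries, with each vertical axis starting at 0, a point for each library, a line at the mean and bars of 1 SD. The Confine points of Bnip3 (201 and 275 CPM) and Bnip3l (747 and 678 CPM) lie far above all Ctrl points, and the single high Ctrl point of Phb2 is replicate 1 (153 CPM).

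Bnip3 (ENSMUSG00000078566.8, chr7:138890836-138909519, minus strand, GRCm38) encodes the founding member of the family, an outer membrane protein that acts as a mitophagy receptor and, in some settings, promotes cell death. Its normalized level was 20.0, 21.1 and 23.7 CPM in Ctrl, against 201 and 275 CPM in Confine. The Ctrl libraries lay close together and both Confine libraries were far above them. The means were 21.6 ± 1.88 CPM (SD, n = 3) and 238 ± 51.8 CPM (SD, n = 2), and on the log2 scale the change was 3.46 with a standard error of 0.20 (edgeR adjusted p = 5.06e-10), with a 95% interval of 8.28 to 14.7-fold. Of all 15881 tested genes, 99.2% had a lower log2 fold change. The groups did not overlap, which holds for 25.9% of all tested genes in the higher direction, and an exact permutation test, two-sided and run on log2(CPM + 1), gave its smallest possible p of 0.1. Stretches of 100 bp or longer with 95% identity to Bnip3 transcripts were found in 5 other genes, of which the most abundant averaged 6.6 counts, while Bnip3 averaged 2914.

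Bnip3l (ENSMUSG00000022051.15, chr14:66985239-67008877, minus strand) encodes NIX. It had 125, 114 and 155 CPM in Ctrl and 747 and 678 CPM in Confine. Again both Confine libraries stood clear of the Ctrl libraries. The means were 131 ± 21.2 CPM (SD, n = 3) and 713 ± 48.4 CPM (SD, n = 2), and on the log2 scale the change was 2.44 with a standard error of 0.19 (edgeR adjusted p = 2.88e-08), with a 95% interval of 4.14 to 7.13-fold. A transcribed processed pseudogene, Bnip3l-ps (chr12:18216542-18217673, plus strand), shares up to 1131 bp at 99.4% identity with Bnip3l, and reads could have been assigned to either. It had 21.9, 20.1 and 30.9 CPM in Ctrl and 143 and 135 CPM in Confine, a log2 fold change of 2.52 (standard error 0.20). This pattern ran beside that of Bnip3l, with a root mean square distance of 0.0812 between their centred log2 CPM profiles. With the counts of both genes summed, the log2 fold change of Bnip3l was 2.45 (standard error 0.19), so its rise was as large when these reads were pooled.

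The BNIP3 genes differed from each other in size of change and in which Confine library was higher. Bnip3 was 1.36 times as high in Confine replicate 3 as in the repeated Confine library, and Bnip3l 0.908 times. Per length, in TPM (reads divided by the length of all annotated exons and scaled to the library), the ratio of Bnip3l to Bnip3 was 3.66, 3.17 and 3.84 in Ctrl, compared with 2.18 and 1.45 in Confine. Bnip3l was thus the more abundant of the pair in all 5 libraries, with a smaller ratio in Confine.

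Pink1 (ENSMUSG00000028756.12, chr4:138313409-138326307, minus strand) encodes the kinase that starts the ubiquitin-dependent route. It had 14.7, 17.5 and 16.5 normalized CPM in Ctrl and 20.5 and 30.5 normalized CPM in Confine. Both Confine libraries were above the Ctrl libraries, and they differed from each other more than the Ctrl libraries did. On the log2 scale the change was 0.65 with a standard error of 0.21 (edgeR adjusted p = 0.0287), below the study's cutoff of 1.5, with a 95% interval of 1.16 to 2.12-fold. The call depended on single libraries: the log2 fold change was 0.34 (edgeR adjusted p = 0.48) without Confine replicate 3 and 0.58 (edgeR adjusted p = 0.114) without Ctrl replicate 1. It also depended on the scaling, with 0.44 (edgeR adjusted p = 0.133) when library size alone was used. In TPM the groups overlapped, since the repeated Confine library had 18.5 TPM and Ctrl replicate 2 had 18.7 TPM.

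The FUNDC proteins are small outer membrane proteins, of which FUNDC1 is a mitophagy receptor known from cells at low oxygen. Fundc1 (chrX:17556564-17572325, minus strand) ranged from 36.9 to 46.6 CPM in Ctrl and from 43.8 to 48.9 CPM in Confine, so the groups overlapped. Its log2 fold change was 0.18 (edgeR adjusted p = 0.537), with a 95% interval of 0.866 to 1.48-fold. Fundc2 (chrX:75382399-75396459, plus strand) ranged from 57.9 to 77.6 CPM in Ctrl and from 80.2 to 94.6 CPM in Confine. Its log2 fold change was 0.40 (edgeR adjusted p = 0.146) with all libraries and 0.52 (edgeR adjusted p = 0.0268) without Ctrl replicate 2, its highest Ctrl library. Neither interval reached the 4.14-fold at which that of Bnip3l began.

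Bcl2l13 (chr6:120836212-120892842, plus strand), a BCL2 family receptor regarded as the counterpart of yeast Atg32, had 25.4 to 29.7 CPM in Ctrl and 30.0 to 30.8 CPM in Confine, with a log2 fold change of 0.17 (edgeR adjusted p = 0.565) and a 95% interval of 0.862 to 1.46-fold. Its last exon overlaps Bid on the opposite strand, over up to 629 bp of shared transcript. Bid averaged 2700 counts and Bcl2l13 762 counts over the libraries, the log2 fold change of Bid was -0.91, and whether counting used the strand is not given in the sources used here. Scaling by library size alone turned the log2 fold changes of Fundc1 (-0.03) and Bcl2l13 (-0.04) to the other side of 0.

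Fkbp8 and Phb2 had negative log2 fold changes, and neither passed the test in edgeR, DESeq2 or limma-voom with all libraries, nor at an unadjusted p under 0.05 in any of the 3. Fkbp8 (chr8:70527724-70535328, plus strand) encodes an outer membrane receptor with a peptidyl-prolyl isomerase domain. It had 566, 395 and 504 CPM in Ctrl and 385 and 383 CPM in Confine. The Confine libraries were nearly equal and lay just below the lowest Ctrl library, replicate 2. The log2 fold change was -0.35 (edgeR adjusted p = 0.212), with -0.48 (edgeR adjusted p = 0.0388) without Ctrl replicate 2 and -0.55 (edgeR adjusted p = 0.0346) with library size alone. Groups that do not overlap, as here, occurred in 23.6% of all tested genes in the lower direction. The first part of Fkbp8 overlaps Kxd1 on the opposite strand, over up to 114 bp of shared transcript, and Kxd1 averaged 3380 counts with a log2 fold change of 0.62.

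Phb2 (chr6:124712336-124716950, plus strand) encodes prohibitin 2, an inner membrane scaffold that can bind LC3 once the outer membrane is ruptured. It had 153, 68.5 and 62.2 CPM in Ctrl and 65.6 and 70.8 CPM in Confine. Confine replicate 1 thus lay between Ctrl replicates 2 and 3, and Confine replicate 3 lay just above both. Ctrl replicate 1 was 2.46 times as high as the lowest Ctrl library, the widest Ctrl range of the 8 genes. On the log2 scale the change was -0.47 with a standard error of 0.29 (edgeR adjusted p = 0.268). Without Ctrl replicate 1 it was 0.06 (edgeR adjusted p = 0.906), and without Ctrl replicate 3 it was -0.72 (edgeR adjusted p = 0.0405), so Ctrl replicate 1 set its sign.

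**Figure D2:**
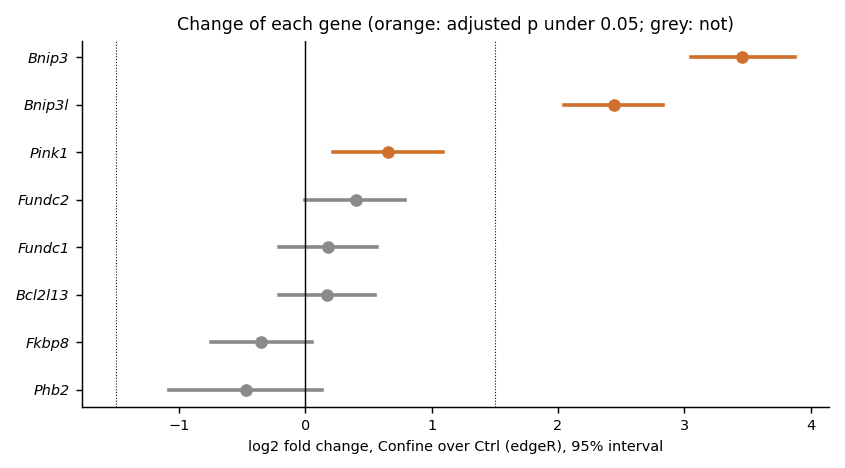
Log2 fold change of each gene, Confine over Ctrl, as points with 95% intervals from edgeR; orange marks an adjusted p under 0.05, grey marks the others, and dotted lines stand at the study's cutoff of 1.5 in both directions. The intervals of Bnip3 (3.05 to 3.88) and Bnip3l (2.05 to 2.83) lie wholly beyond the cutoff, and that of Pink1 (0.22 to 1.09) lies between 0 and the cutoff.

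The order of the levels changed with these shifts. In Ctrl, Fkbp8 was the most abundant of the 8 genes per length (302 ± 49.2 TPM, SD, n = 3), followed by Bnip3l (95.3 ± 14.3 TPM), Phb2 (71.3 ± 37.7 TPM), Fundc2 (67.1 ± 11.3 TPM), Fundc1 (48.7 ± 5.77 TPM), Bnip3 (26.8 ± 2.22 TPM), Pink1 (17.1 ± 1.69 TPM) and Bcl2l13 (8.36 ± 0.650 TPM). The libraries of Bnip3l and Phb2 overlapped, and so did those of Phb2 and Fundc2, whereas the other neighbours in this order did not overlap. In Confine, Bnip3l came first (437 ± 41.3 TPM, SD, n = 2), then Bnip3 (248 ± 47.4 TPM) and Fkbp8 (200 ± 5.85 TPM). Bnip3 went from place 6 to place 2. The remaining genes ran from Fundc2 (74.0 ± 6.68 TPM) to Bcl2l13 (7.90 ± 0.0766 TPM), and no neighbours in the Confine order had overlapping libraries. The order depended on the length used. With the longest protein-coding transcript as the length, Bnip3l and Fkbp8 had close means in Confine, 354 and 345 TPM, and in Confine replicate 3 Fkbp8 held more of the summed TPM (30.0%) than Bnip3l (29.3%). Bnip3 then took place 3 and Phb2 moved from place 6 to place 4 in Confine, and in Ctrl Phb2 passed Bnip3l to take place 2.

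Together the 8 genes summed to 637 ± 67.6 TPM (SD, n = 3) in Ctrl and 1080 ± 15.9 TPM (SD, n = 2) in Confine. Bnip3 and Bnip3l held 19.3 ± 2.83% of this sum in Ctrl and 63.4 ± 0.378% in Confine, while Fkbp8 went from 47.3 ± 2.87% to 18.6 ± 0.817%. The other 6 genes summed to 457 to 588 TPM in the Ctrl libraries and to 387 to 401 TPM in the Confine libraries. In TPM the sum was thus higher in Confine for the BNIP3 genes and not for the other 6. TPM leave out the TMM factors (1.04 to 1.08 in Ctrl, 0.91 to 0.924 in Confine), which would raise Confine against Ctrl. Whether the groups of the other 6 stay apart with these factors was not tested. With the longest protein-coding transcript as the length, the share of Bnip3 and Bnip3l was 11.8% in Ctrl and 51.2% in Confine.

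**Figure D3:**
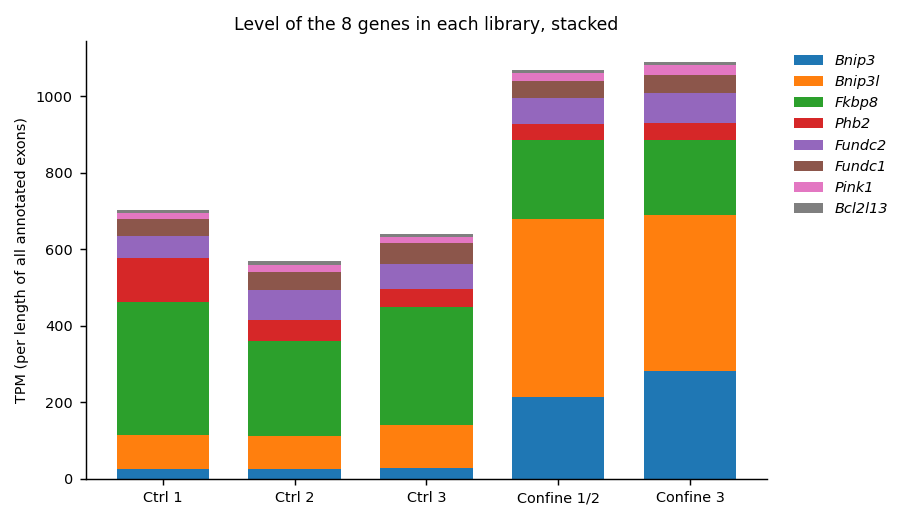
Stacked level of the 8 genes in each of the 5 libraries, in TPM over all annotated exons, with 1 bar per library and 1 colour per gene. Bnip3 and Bnip3l at the foot of the bars make up 16.3% to 22.0% of the Ctrl bars and 63.2% to 63.7% of the Confine bars.

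The other genes of the pathway were taken from 7 hand-written lists with 72 genes in all, chosen for their role. Of these, 68 were tested, 5 were higher and 2 lower in Confine (edgeR adjusted p under 0.05), that is 10.3% against 23.0% of all tested genes, and their median log2 fold change was -0.09. Scaled by library size alone, 4 were higher and 11 lower, so the balance between the directions depended on the scaling. The counts also depended on single libraries, with 3 higher and 1 lower without Ctrl replicate 1, 9 and 5 without Ctrl replicate 2, 1 lower without Confine replicate 1, and 2 and 1 without Confine replicate 3.

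On the list of the PINK1 arm, which holds genes of the ubiquitin-dependent route, 1 of 15 tested genes was higher and none was lower. Among all tested genes, 12.8% were higher and 10.2% lower. The gene that rose was Usp35, which encodes a deubiquitinating enzyme, with 4.21 to 5.56 CPM in Ctrl and 9.05 to 9.77 CPM in Confine (log2 fold change 0.92, standard error 0.24, edgeR adjusted p = 0.00815). It kept an adjusted p under 0.05 in 12 of 15 alternatives, and had 0.0836 as its highest adjusted p. The exceptions included the fits without Ctrl replicate 1 and without Confine replicate 3.

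Of the 5 genes of LC3 and GABARAP proteins, to which the receptors bind, 2 rose, against 12.8% of all tested genes. Map1lc3a had 80.0 to 89.6 CPM in Ctrl and 135 to 143 CPM in Confine (log2 fold change 0.70, standard error 0.17, edgeR adjusted p = 0.00581), and it missed the threshold without Confine replicate 3. Gabarapl2 had a log2 fold change of 0.51 (edgeR adjusted p = 0.0444) and passed in 7 of 15 alternatives, with 1 of the 5 fits that leave out a library among them. Gabarap (0.48, edgeR adjusted p = 0.0708), Map1lc3b (0.19, edgeR adjusted p = 0.502) and Gabarapl1 did not pass.

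None of the 10 tested adaptors (Calcoco2 and Nlrx1 had 0 counts), the 11 regulators of receptors and the 8 tested genes of mitochondrial fission and fusion (Mtfp1 had at most 15 counts) had an edgeR adjusted p under 0.05. The share over all tested genes was 23.0%. Of these 29 genes, 4 had an unadjusted p under 0.05 in edgeR, and DESeq2 and limma-voom each gave the same counts, 0 and 4. Among them, Ulk1, the kinase that starts autophagy and phosphorylates FUNDC1, had a log2 fold change of -0.04 (standard error 0.21). Fbxl4 and Pptc7, whose products hold down the amounts of BNIP3 and NIX protein, had 0.08 (standard error 0.22) and 0.06 (standard error 0.32). The Confine libraries of Pptc7 lay apart, at 6.15 CPM in replicate 1 and 3.18 CPM in replicate 3, so its value is loosely set.

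The list of outer membrane and matrix proteins used as markers of mitochondrial content had 1 of 11 genes higher and 2 lower. The shares over all tested genes were 12.8% higher and 10.2% lower. These values are RNA levels, and mitochondrial content itself was not measured. Vdac1, an outer membrane channel, had 191 to 227 CPM in Ctrl and 426 to 470 CPM in Confine (log2 fold change 1.07, standard error 0.18, edgeR adjusted p = 0.000171). Its relatives Vdac2 and Vdac3 had log2 fold changes of -0.09 and -0.08 and did not pass. Hspd1, the matrix chaperonin HSP60, fell by 0.83 on the log2 scale, and its log2 fold change had a standard error of 0.19 (edgeR adjusted p = 0.00379). Tfam, which packages mitochondrial DNA, had a log2 fold change of -0.62 (edgeR adjusted p = 0.0208) and passed in 11 of 15 alternatives, 2 of the 5 that leave out a library among them. Vdac1 and Hspd1 passed in all 15.

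Among 8 transcription factors named as regulators of BNIP3 family genes or of autophagy, 1 passed the test, against 23.0% of all tested genes. This was Foxo3, a forkhead factor known to activate Bnip3 and Bnip3l in muscle. It had 64.1, 116 and 67.1 CPM in Ctrl and 306 and 262 CPM in Confine, with a log2 fold change of 1.78 (standard error 0.23, edgeR adjusted p = 1.23e-05), and it passed in all 15 alternatives. Hif1a, the oxygen-regulated subunit of HIF-1, which is controlled mainly at the protein level, had a log2 fold change of 0.38 (edgeR adjusted p = 0.169). Of 11 widely used hypoxia reporter genes, Egln3 had at most 2 counts and was not tested. The other 10 were all higher, against 12.8% of all tested genes, with log2 fold changes from 1.76 to 5.59. The 2.44 of Bnip3l and 3.46 of Bnip3 lie inside that range. The reporters were chosen with earlier results of these data known, and whether hypoxia had a part in these changes was not tested.

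**Figure D4:**
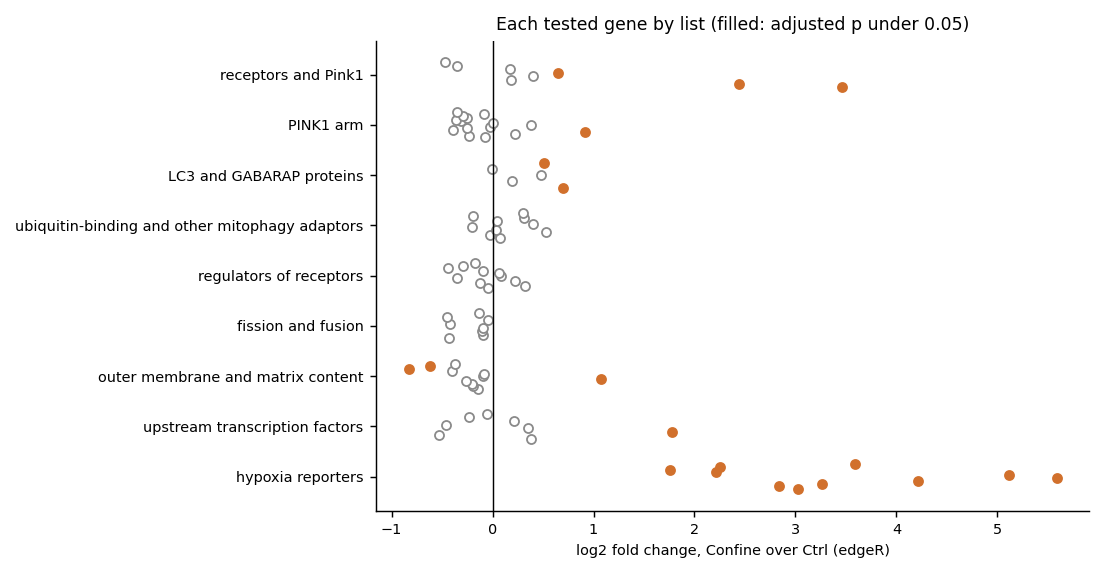
Log2 fold change of every tested gene, Confine over Ctrl, by list, with 1 point per gene, filled where the edgeR adjusted p was under 0.05. Bnip3 and Bnip3l stand apart at 3.46 and 2.44 in the top line, the 7 mitophagy lists mostly hold open points near 0, and the 10 hypoxia reporters at the bottom are all filled.

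The genes with the pattern most like that of Bnip3 were taken as those with the smallest root mean square distance between centred log2 CPM profiles over the 5 libraries, among 12203 tested protein-coding genes. They were Ripor2 (distance 0.157), Foxs1 (0.176), Epm2a (0.189), Higd1a (0.204) and Pdk1 (0.212). Higd1a encodes an inner mitochondrial membrane protein and Pdk1 a kinase that inhibits pyruvate dehydrogenase. Both are also among the 10 tested hypoxia reporters counted above. For Bnip3l they were Bpgm (0.0361), Susd1 (0.0997), Porcn (0.106), Clybl (0.144) and Medag (0.160), of which Bpgm encodes bisphosphoglycerate mutase. The distance between Bnip3 and Bnip3l was 0.529, so neither was among the nearest genes of the other. With 5 libraries in 2 groups, these distances mostly reflect the size of the difference between the groups.

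**Figure D5:**
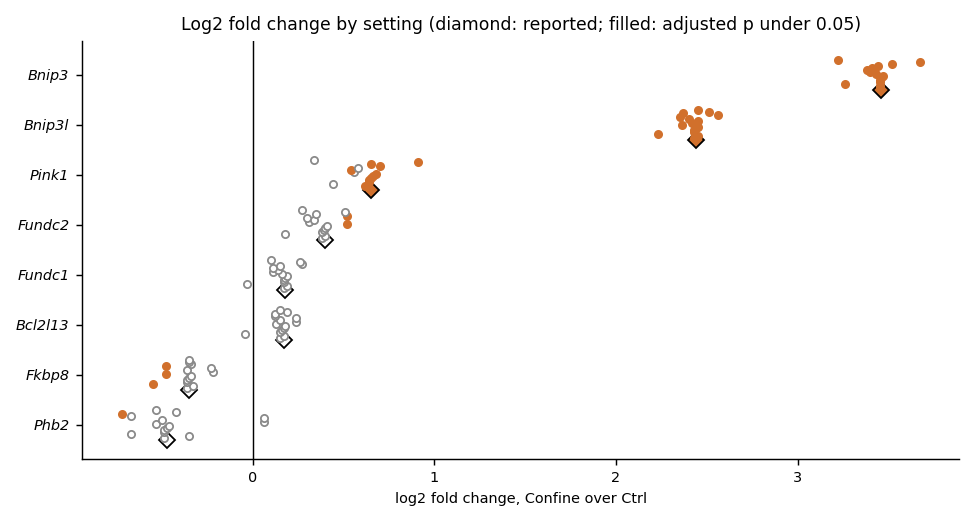
Log2 fold change of each gene, Confine over Ctrl, under the reported setting (diamond) and each alternative (circles), filled where the adjusted p was under 0.05. All values of Bnip3 (3.22 to 3.67) and Bnip3l (2.23 to 2.56) are filled and far from 0, those of Pink1 run from 0.34 to 0.91 with filled and open symbols, and those of Phb2 lie on both sides of 0.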

How the data were processed

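RNA-seq counts were analysed for 3 Ctrl and 2 Confine libraries of mouse embryonic fibroblasts. The authors selected polyadenylated RNA, marked the second strand with dUTP, and deposited raw counts per gene without normalization. The submitters' processing notes name Trim Galore 0.6.10, HISAT2 2.1.0, SAMtools 1.5, featureCounts and the mm10 genome. The annotation and the strand setting of counting are not given in the sources used here, and either choice can shift reads from one gene to a neighbour or a copy of it. Of 55335 gene identifiers, 55154 matched GENCODE M21 (GRCm38) without the version, which gave names, positions and exon lengths. Promoter windows are from RefSeq (GRCm38.p6).

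The test was the quasi-likelihood F test in edgeR 4.0.16 (R 4.3.3), run on the 15881 genes that filterByExpr retained and with TMM scaling, with Benjamini-Hochberg adjustment over all genes tested and a threshold of 0.05. Standard errors are the log2 fold change divided by the square root of the F statistic. CPM are TMM-normalized, and TPM were computed from counts and the length of all annotated exons, without TMM. Intervals cover the spread between libraries, and the floor of 3 counts covers counting error only. Copies were searched with blastn 2.17.0 (at least 100 bp, 95% identity). The fit was tested on simulated data. Alternatives were DESeq2 1.42.0, limma-voom (limma 3.58.1), other scalings and filters, a replicate block, and fits that drop 1 library each. The named genes were the 8 members, up to 4 genes per list and direction with the smallest adjusted p under 0.05, list genes with too few counts to test (some items are not reported here), and the 5 nearest profiles of Bnip3 and of Bnip3l. Other genes named beside them, among them Ulk1, Fbxl4, Pptc7, Hif1a, Vdac2, Vdac3, Gabarap, Gabarapl1, Map1lc3b, Bid and Bnip3l-ps, were chosen after their values were seen. The members and lists were chosen with earlier results of these data known.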

Additional observations from a re-analysis of the deposited data

How the results depend on the processing

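Bnip3 and Bnip3l were higher in Confine in all 15 alternatives, each time with an adjusted p under 0.05, and Bnip3l also with its pseudogene summed, which was added after seeing the data. Over the fits without one library, log2 fold changes ran from 3.22 to 3.67 for Bnip3, 2.35 to 2.56 for Bnip3l, 0.34 to 0.91 for Pink1, 0.27 to 0.52 for Fundc2, -0.48 to -0.23 for Fkbp8 and -0.72 to 0.06 for Phb2. A lone Confine library in these fits is assumed to vary like the Ctrl libraries. Without one library, 2 to 5 of the 8 genes, 2 to 9 higher and 1 to 5 lower mitophagy list genes, and 2054 to 4426 of all genes (1196 to 2411 higher, 850 to 2015 lower) had an adjusted p under 0.05. With library size alone, which moved the median of all genes to -0.21, log2 fold changes were -0.03 for Fundc1, -0.04 for Bcl2l13, 0.44 for Pink1 (past the threshold no longer) and -0.55 for Fkbp8 (now past it), and 2805 genes and 11 mitophagy list genes were lower, with 34.0% of the genes past the test higher against 55.7% with TMM. With at least 10 counts in every library, 812 genes were called with the cutoff of 1.5, 479 of them higher. When the identical columns entered as 2 samples, 2456 genes were lower, and 8 mitophagy list genes were higher and 7 lower. The pairing of replicate numbers rests on a number alone, and the repeated library carries the numbers 1 and 2: differences between numbers had a correlation across genes of 0.052 with it as number 1 and -0.053 as number 2. With the replicate block, which leaves 1 residual degree of freedom, the repeated library as number 1 gave 5 of 8 genes, 0.52 for Fundc2 and -0.48 for Fkbp8 (both past the threshold), and 11 higher and 7 lower mitophagy list genes. As number 2 in the block it gave 0.56 for Pink1 (adjusted p = 0.178), 0.06 for Phb2, and 2 higher and 1 lower list genes. The share of Bnip3 and Bnip3l in the summed TPM, 19.3% in Ctrl and 63.4% in Confine, was 11.8% and 51.2% with the longest protein-coding transcript as the length, added after seeing the data, and without one library it ran from 17.9% to 20.8% in Ctrl and from 63.2% to 63.7% in Confine. Apart from what each alternative changes by construction, the cause was not tested.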
